A study of Rattus norvegicus with 4 samples.

Results

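The MYC network is a family of transcription factors that pair through a basic helix-loop-helix leucine zipper and bind the E-box sequence CACGTG. It was described here through 10 genes chosen by symbol in the authors' gene table, which are Myc, Mycn and Mycl (the MYC activators), Max (their shared partner), Mxd1, Mxi1, Mxd3, Mxd4 and Mnt (repressors that pair with MAX) and Mlx (a MAX-like partner). All 10 had a single row among the 17778 rows of the table. All cells were RSC96, a rat Schwann cell line (Schwann cells are the glia of peripheral nerves), used in the 4th generation after a night without serum. The IL-22 group (2 libraries) received recombinant rat IL-22, a relative of the cytokine IL-10, at 100 ng/ml for 48 h. The control group (2 libraries) received the solvent alone (bovine serum albumin at 0.1%), with no duration stated. Nothing in the labels says that the libraries of a group came from separate cultures, so a p-value here reflects spread among libraries that may be purely technical. By its title, the study asked how IL-22 bears on proliferation of these cells and on regeneration of nerves.

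MYC proteins act only as dimers with MAX, and such dimers raise genes of ribosome assembly, nucleotide and amine synthesis and cell-cycle entry. MXD proteins and MNT compete for MAX, occupy the same E-boxes and recruit the SIN3 corepressor, so the balance between activators and repressors sets the output. MLX pairs with some of the repressors and with the glucose-sensing factors MondoA and ChREBP. Among the repressors, Mxd3 is typical of dividing cells in S phase, Mxd1, Mxi1 and Mxd4 of cells leaving the cycle, and Mnt is present in most cells.

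E-boxes also lie in front of several genes of the network itself. RefSeq windows on the build GRCr8, from 250 bases before to 50 bases after a gene's start, were given for 8 of the 10 members (not Myc or Mycn). CACGTG, which is its own reverse complement, was present in 4 of these 8 windows and in 6.42% of all 33469 windows in that table. The 4 matches are shown because they are the letters that the network's own dimers bind, with the E-box in capitals, on the strand of the gene, 5′ to 3′. A match of letters is no measure of binding in these cells. The sites begin 33 bases before the start for Max, 123 for Mnt, 70 for Mlx and 197 for Mxd4.
Max, chr6:101395306-101395335, minus strand: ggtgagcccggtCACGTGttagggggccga
Mnt, chr10:60197824-60197853, plus strand: ccccacccaagcCACGTGtgcgcgcgcgat
Mlx, chr10:86519804-86519833, plus strand: ggtggcttggatCACGTGactgagcctcgc
Mxd4, chr14:80786572-80786601, plus strand: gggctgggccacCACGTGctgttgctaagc

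The members with the largest differences in these data, Mxd3 and Mxi1, had no CACGTG in their windows, and further motifs were searched on both strands after their values were seen. GGCGGGAA, a form of the site bound by E2F factors, lay in the window of Mxd3 alone among the 8 members and in 1.91% of all windows. ACGTG, the core of the site bound by hypoxia-inducible factors and also the end of every CACGTG, lay in 6 of the 8 windows and in 19.3% of all. Outside CACGTG it lay in the windows of Mxi1 and of Mxd1, in the latter 67 bases upstream. TTCNNNGAA, the form bound by STAT factors, lay in 0 of the 8 windows and in 8.87% of all, which says only that these letters are not in these windows. The 250 bases before the start of Mxd3, with GGCGGGAA in capitals 128 bases upstream, and the first 30 bases of the Mxi1 window, with ACGTG in capitals 248 bases upstream, are given below.
Mxd3, chr17:9306302-9306551, plus strand: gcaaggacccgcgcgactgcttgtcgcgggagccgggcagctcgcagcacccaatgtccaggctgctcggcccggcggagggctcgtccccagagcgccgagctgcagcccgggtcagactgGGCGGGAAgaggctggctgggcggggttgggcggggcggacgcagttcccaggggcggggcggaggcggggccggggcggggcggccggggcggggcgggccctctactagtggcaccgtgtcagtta
Mxi1, chr1:262348392-262348421, plus strand: cgACGTGtactggcttgggggcgggactac

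Values are FPKM (fragments relative to transcript length and library size), by which levels were compared between genes as a description only. A difference is the IL-22 mean minus the control mean of log2(FPKM + 1), with the standard error and Benjamini-Hochberg adjusted p of limma over the 9485 rows whose mean reached 1 FPKM. The 2 libraries of a group were close, with a Pearson r across these genes, which are not independent replicates, of 0.995 for controls and 0.996 for IL-22. By the spacing of low values, control library 2 was 1.28 times and each IL-22 library 1.08 times as deep as control library 1. Of 13 Schwann cell markers with a row, 9 stayed under 1 FPKM in every library, and Sox10, S100b and Ngfr did not exceed 0.0315, 0.0760 and 0.119 FPKM. The labelled cell type thus rests on few of its defining markers, of which Ncam1 was the highest at 23.9 and 24.9 FPKM in controls and 34.1 and 38.3 FPKM with IL-22. In bulk RNA, fewer cells expressing a gene and less RNA per cell cannot be told apart.

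In the controls the partner genes stood highest, followed by Myc and then the repressors. Mlx measured 84.0 ± 3.66 FPKM (SD, n = 2) and Max 79.4 ± 30.04 FPKM, and their libraries overlapped. Below them came Myc (46.1 ± 3.42), Mxd3 (20.2 ± 0.375), Mnt (14.2 ± 1.03), Mxi1 (9.76 ± 0.228), Mxd4 (8.87 ± 0.328), Mxd1 (5.77 ± 0.455) and Mycl (1.67 ± 0.0494), each with its libraries clear of those of its neighbours. With IL-22 the order of Mlx, Max and Myc was kept, Mxi1 took the place after Myc, and Mxd3 stood below Mxd1. No neighbouring pair above Mycn overlapped in the IL-22 libraries. Mycn was listed at 0 in both controls and IL-22 library 2 and at 0.0465 FPKM in IL-22 library 1, and was not tested.

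**Figure D1:**
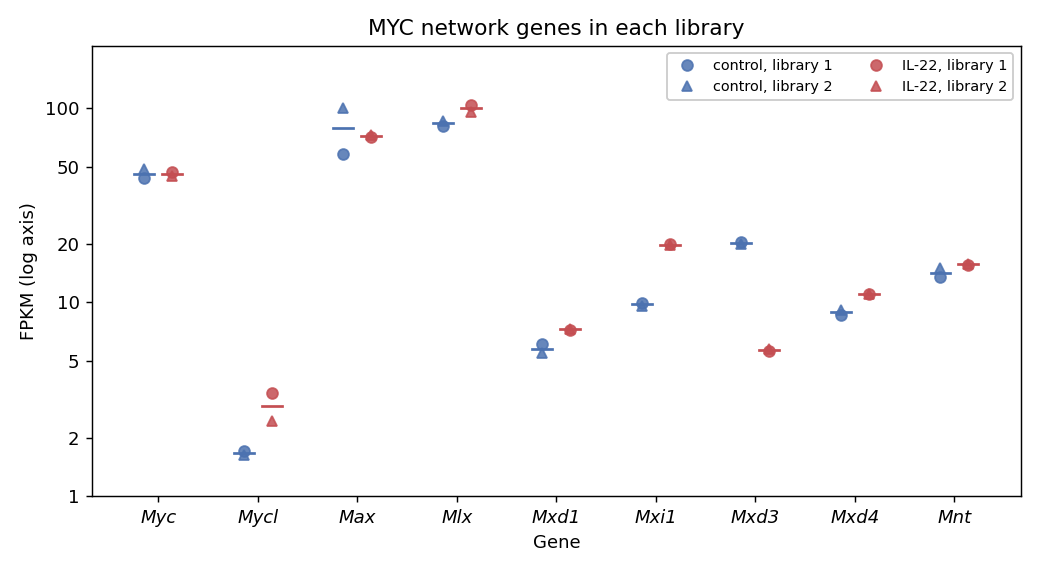
FPKM of 9 network genes (log axis) in the 2 control and 2 IL-22 libraries, with circles for library 1, triangles for library 2 and a bar at each group mean; Mycn, at or near 0, is left out. Mxd3 falls and Mxi1 rises with little spread within groups, Myc stays between 43.7 and 48.5 FPKM, and the 2 control values of Max lie apart.

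Of the 9 tested members, 5 were higher with IL-22 (Mxi1, Mycl, Mxd1, Mxd4 and Mlx), 1 was lower (Mxd3) and 3 did not pass (Myc, Max and Mnt). Over all tested genes 27.6% were higher and 30.8% lower, and 58.4% passed in either direction. The 5 of 9 higher should be read against the 27.6%, in a response that broad and with few members. The median difference of the members was 0.25 against -0.022 over all tested genes, and their median absolute difference of 0.28 lay below the 0.32 of all genes. Only Mxi1 and Mxd3 passed whichever single library was left out. Mlx also kept its call when library 2 of either group was absent, and Mycl kept its call without IL-22 library 2. Max, not called with all libraries, was called higher without control library 2 and lower without control library 1.

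**Figure D2:**
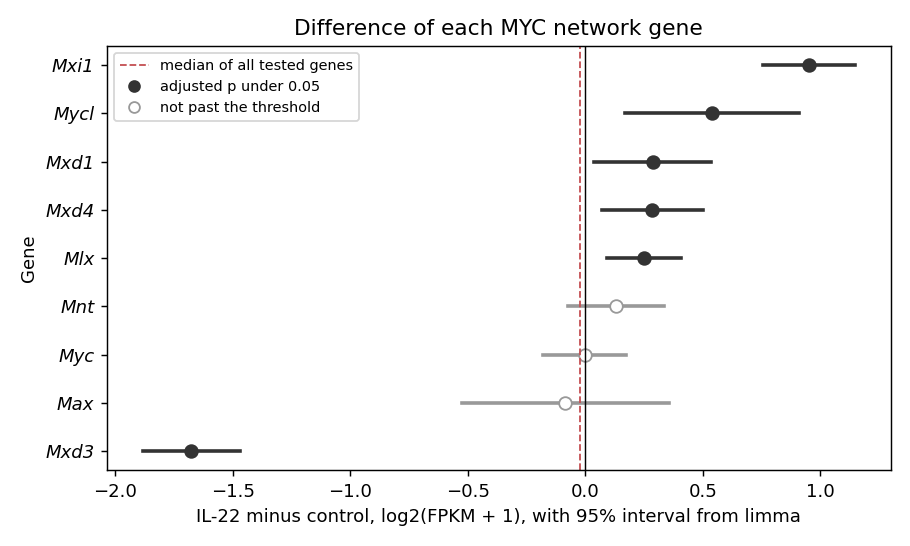
Difference of each tested network gene (IL-22 minus control, in log2(FPKM + 1)) with the 95% interval from limma; filled points passed an adjusted p of 0.05, and the dashed line is the median of all tested genes (-0.022). Mxd3 at -1.68 lies far below the others, Mxi1 at 0.95 is the highest with an interval that overlaps that of Mycl, and the interval of Myc is centred near 0.

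Myc, the activator for which the network is named, was not found to differ between the groups. It measured 43.7 and 48.5 FPKM in control libraries 1 and 2 and 47.1 and 44.9 FPKM in IL-22 libraries 1 and 2. Both IL-22 values lay between the controls. The difference was -0.0026 ± 0.077 (limma adjusted p = 0.980), with a 95% interval from -0.18 to 0.17. Across 14 alternative settings the difference of Myc ran from -0.077 to 0.096 and its adjusted p from 0.319 to 0.983.

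Mycl, a MYC relative with a narrower range of tissues, was low in every library. It measured 1.71 and 1.64 FPKM in controls and 3.40 and 2.43 FPKM with IL-22. The groups did not overlap, but the IL-22 libraries differed from each other by more than those of 96.0% of tested genes. The mean was 1.74-fold higher (0.54 ± 0.16, limma adjusted p = 0.0190), a call lost without either control (adjusted p = 0.0849 without library 1 and 0.0973 without library 2), without IL-22 library 1 (0.162), with quantile normalization (0.121) and without the filter (0.0509). Mycl made up 3.76% and 3.27% of the summed FPKM of Myc, Mycn and Mycl in controls and 6.74% and 5.14% with IL-22, so Myc supplied nearly all of that sum in both groups.

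Max, the obligate partner of MYC, gave no usable comparison because the controls disagreed. It measured 58.2 and 100.6 FPKM in control libraries 1 and 2 and 71.1 and 73.2 FPKM with IL-22. Both IL-22 values lay between the controls, whose gap of 0.78 log2 was larger than that of 99.7% of tested genes. The difference was -0.084 ± 0.20 (limma adjusted p = 0.729, 95% interval from -0.53 to 0.36). Without control library 2 Max was higher by 0.31 (adjusted p = 0.0183) and without control library 1 its difference was -0.47 (adjusted p = 0.00728), so its direction depends on which control is used. No other gene overlapped Max in the RefSeq gene table of GRCr8, and the source of the gap was not tested.

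Mlx, the MAX-like partner of MondoA and ChREBP, was the highest member in both groups and was slightly higher with IL-22. It measured 81.4 and 86.5 FPKM in controls and 103.8 and 96.2 FPKM with IL-22, and the groups did not overlap. The difference was 0.25 ± 0.070 (limma adjusted p = 0.0134), a 1.19-fold rise in the mean, and the call was lost when library 1 of the controls (adjusted p = 0.0770) or of the IL-22 group (0.139) was absent. Psmc3ip overlaps Mlx in the RefSeq table, and without a stated strand the reads of overlapping genes cannot be told apart. Of other dimer partners of MLX or MAX, Mlxipl, which encodes ChREBP, was listed at 0 in all 4 libraries. No row was matched to Mlxip or Mga by symbol or by an unambiguous RefSeq synonym.

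Among the repressors, Mxd3 fell and Mxi1 rose. Mxd3 measured 20.5 and 19.96 FPKM in control libraries 1 and 2. With IL-22 it measured 5.58 and 5.71 FPKM. Both IL-22 values lay far below both controls, and within each group the libraries were nearly equal. The mean with IL-22 was 0.279 of that of controls (-1.68 ± 0.092, limma adjusted p = 1.42e-06), the 29th largest fall among the 9485 rows. Of all tested genes, 2.84% were lower by at least 1 log2 and past the threshold. The call held under all 14 alternatives, with differences from -1.82 to -1.24.

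Mxi1, the repressor also known as MXD2, measured 9.92 and 9.60 FPKM in controls. With IL-22 it measured 19.9 and 19.7 FPKM. The mean was 2.03-fold higher (0.95 ± 0.086, limma adjusted p = 2.43e-05), which placed it 498th among rises. The call held under all 14 alternatives, with differences from 0.75 to 1.01. A lncRNA locus overlaps Mxi1 in the RefSeq table, as one does Mxd1.

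The other repressors were modestly higher or did not pass. Mxd1 measured 6.09 and 5.45 FPKM in controls and 7.23 and 7.27 FPKM with IL-22 (0.29 ± 0.11, limma adjusted p = 0.0482). That call sat at the threshold and was lost under 7 of 14 alternatives, including the absence of any 1 library (adjusted p from 0.0288 to 0.14997 over all 14). Mxd4 measured 8.64 and 9.10 FPKM in controls and 11.0 FPKM in both IL-22 libraries (0.28 ± 0.095, limma adjusted p = 0.0281), and lost its call when any 1 library was left out (adjusted p from 0.0513 to 0.108). Mnt, the repressor present in most cells, measured 13.5 and 14.98 FPKM in controls and 15.6 and 15.8 FPKM with IL-22. Its groups did not overlap, as in 80.1% of tested genes, and it did not pass (0.13 ± 0.090, limma adjusted p = 0.238, 95% interval from -0.073 to 0.34).

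The makeup of the repressors differed between the groups while their summed FPKM, as deposited, stayed within a narrow range. The summed FPKM of Mxd1, Mxi1, Mxd3, Mxd4 and Mnt was 58.7 and 59.1 in control libraries 1 and 2 and 59.4 in both IL-22 libraries. Mxd3 held 34.9% and 33.8% of that sum in controls and 9.39% and 9.61% with IL-22. Mxi1 held 16.9% and 16.2% in controls and 33.6% and 33.1% with IL-22. The most abundant repressor gene was thus Mxd3 in both controls and Mxi1 in both IL-22 libraries, and the ratio of Mxi1 to Mxd3 went from 0.484 and 0.481 to 3.57 and 3.45. Exact two-sided permutation tests of the sum, of these 2 shares and of the ratio each gave p = 0.333, the smallest that 2 libraries against 2 can give. The FPKM of all rows totalled 636818 and 630119 in control libraries 1 and 2 and 658909 and 669549 in IL-22 libraries 1 and 2. The repressor sum was not rescaled to these totals, so its narrow range holds only for the deposited scaling.

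The level of Myc relative to the repressors overlapped between groups. The ratio of Myc FPKM to the summed repressor FPKM was 0.745 and 0.821 in controls and 0.793 and 0.755 with IL-22 (exact two-sided permutation p = 1.0). These are ratios of transcript levels, and protein was not measured. Max exceeded Myc in every library, by 1.33 and 2.07 times in controls and by 1.51 and 1.63 times with IL-22.

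**Figure D3:**
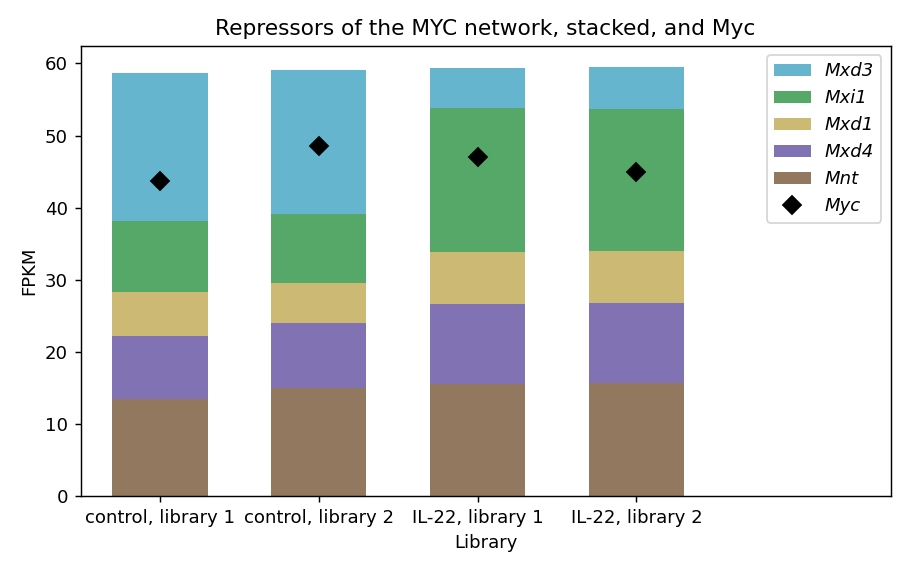
FPKM of the 5 repressor genes stacked for each of the 4 libraries, with Myc as black diamonds on the same axis. The stacks reach from 58.7 to 59.4 FPKM in all libraries, while the Mxd3 segment shrinks and the Mxi1 segment grows with IL-22.

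The genes whose centred values lay nearest to those of Mxd3 over the 4 libraries, among the 9307 tested symbols and by Euclidean distance on the log2 scale, were Phf19 (distance 0.052), a Polycomb-associated gene, Mcm5 (0.096), a subunit of the replicative helicase, and Exo1 (0.10), a DNA exonuclease. Phf19 measured 26.8 and 25.9 FPKM in controls and 7.45 and 8.01 FPKM with IL-22. Nearest to Mxi1 were Armcx1 (0.024), the collagen-modifying lysyl hydroxylase gene Plod2 (0.026) and the methionyl-tRNA synthetase gene Mars (0.029). Plod2 measured 27.3 and 26.1 FPKM in controls and 53.7 and 52.1 FPKM with IL-22. With 4 libraries in 2 groups, such a likeness mostly reflects a similar difference between the groups.

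Genes that MYC is known to raise were lower almost throughout, beside a difference of -0.0026 for Myc itself. Of 58 tested members of this list of 60, 55 were lower, 2 were higher and 1 did not pass, where 30.8% of all tested genes were lower. Their median difference was -0.82 against -0.022 over all tested genes. All 28 tested genes of ribosome biogenesis were lower, with a median of -0.85 and differences from -1.55 to -0.33. Among them Nop56, a core protein of small nucleolar ribonucleoproteins, measured 122 and 114 FPKM in controls and 40.1 and 39.1 FPKM with IL-22 (-1.55 ± 0.068, limma adjusted p = 3.96e-07), and Nop2, an rRNA methyltransferase gene, fell by 1.47 on the log2 scale.

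The same list holds genes of DNA replication and the cell cycle, and all 5 of these were lower, led by Mcm5 (-1.67) and the uracil-DNA glycosylase gene Ung (-1.58). Without these 5 genes the list gave 50 lower and 2 higher of 53, with a median of -0.81. All 8 tested mitochondrial genes of the list were lower as well (median -0.67). The metabolic and transport genes were divided, with 5 lower, 2 higher and 1 not past the threshold of 8. The higher ones were hexokinase 2 (Hk2, from 52.1 ± 5.22 to 79.8 ± 6.22 FPKM) and lactate dehydrogenase A (Ldha), both of glycolysis. Ldha was only 1.14-fold higher (0.19, limma adjusted p = 0.0407). Its call was lost without the filter, with quantile normalization and without the trend. It was also lost without control library 2 and without either IL-22 library. Hk2 kept its call under all of these settings. The ornithine decarboxylase gene Odc1, a classic MYC target, had means of 99.4 and 98.6 FPKM and did not pass. The proliferation marker gene Mki67 fell too, from 152 ± 14.9 to 82.7 ± 3.13 FPKM (-0.87 ± 0.079), and the part of proliferation in these differences was not tested.

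Genes that MYC is known to repress went mostly the other way, with 7 higher, 2 lower and 2 not past the threshold of 11 tested (median 0.36, where 27.6% of all genes were higher). The hypoxia-responsive Ndrg1 rose from 13.9 ± 1.07 to 85.4 ± 7.61 FPKM (2.53), the stress gene Gadd45a by 1.75 and the cyclin-dependent kinase inhibitor gene Cdkn1c by 1.17. Gadd45g fell by 0.49 on the log2 scale.

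**Figure D4:**
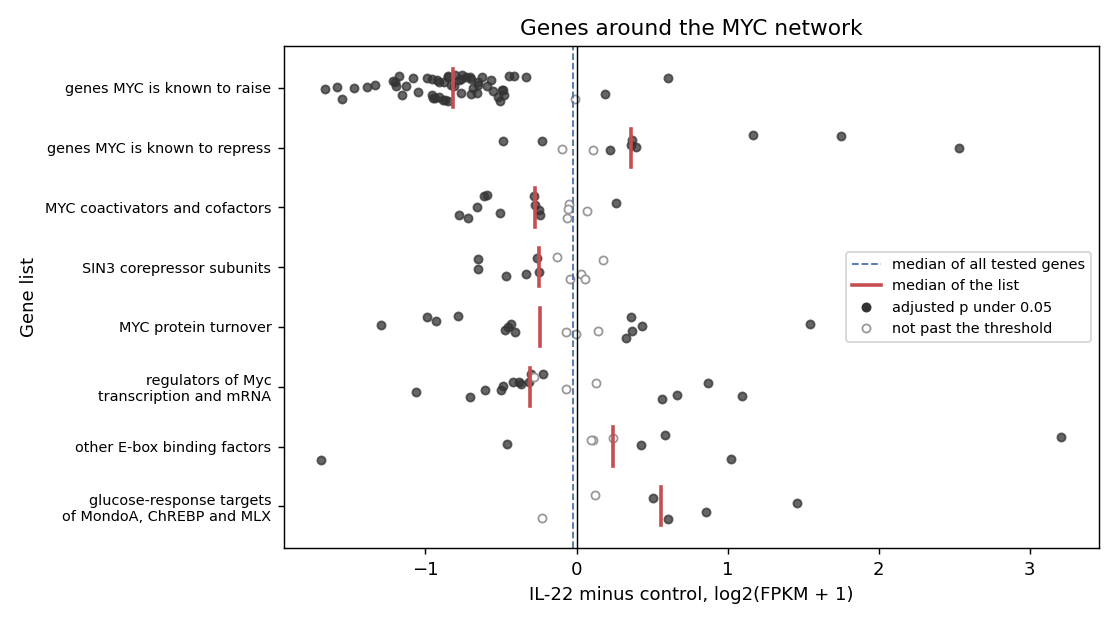
Difference of every tested gene in 8 lists around the network (IL-22 minus control, in log2(FPKM + 1)); filled points passed an adjusted p of 0.05, red bars are list medians and the dashed line is the median of all tested genes. Genes MYC is known to raise sit almost all below 0 (median -0.82). Medians of the cofactor (-0.28), corepressor (-0.25), protein turnover (-0.24) and Myc regulator (-0.31) lists lie slightly below 0.

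Cofactors of the network were more often lower than higher. Of 15 coactivators and cofactors of MYC, 10 were lower, 1 was higher and 4 did not pass (median -0.28), where 30.8% of all tested genes were lower and 27.6% higher. The chromatin-remodelling subunit Actl6a (-0.78), the acetyltransferase Kat2a (-0.72), the elongation factor subunit Paf1 (-0.66) and the histone-methylation adaptor Wdr5 (-0.61) fell most. Of 11 tested genes of the SIN3 corepressor and its associates, which serve the MXD proteins, 6 were lower, 0 were higher and 5 did not pass (median -0.25), against the same 30.8% lower over all genes. The histone-binding subunits Rbbp7 (-0.66) and Rbbp4 (-0.65) led them, followed by Sap18 (-0.47) and Brms1 (-0.33), while Hdac1 measured 151 and 154 FPKM and did not pass.

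Genes that act on MYC protein or on Myc RNA had members in both directions, with more of them lower than higher. Over all tested genes 27.6% were higher and 30.8% lower. Of 16 tested genes of MYC protein turnover, 8 were lower, 5 higher and 3 did not pass (median -0.24). Pim1, a kinase gene induced by STAT3 whose product stabilises MYC, rose from 6.93 ± 0.0096 to 22.2 ± 0.331 FPKM (1.55 ± 0.088, limma adjusted p = 1.74e-06). Set, whose product inhibits the phosphatase PP2A that acts on MYC, fell from 275 ± 15.5 to 111 ± 5.30 FPKM (-1.30), and the mitotic kinase gene Plk1 (-0.99) and the ubiquitin ligase subunit gene Skp2 (-0.93) also fell. Of 18 tested regulators of Myc transcription and mRNA, 11 were lower, 4 higher and 3 did not pass (median -0.31). The mRNA-destabilising gene Zfp36 rose by 1.09 and the mRNA-binding gene Igf2bp2 by 0.87. E2f1 fell from 75.4 ± 3.34 to 35.5 ± 1.21 FPKM (-1.07) and the insulator gene Ctcf by 0.71 on the log2 scale. Stat3, the main transducer of IL-22, rose by 0.67, and its feedback inhibitor gene Socs3 rose by 1.65.

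Other factors that bind E-boxes, not all of them the form CACGTG, included the largest differences of the lists around the network. Of 9 tested, 4 were higher, 2 lower and 3 did not pass (median 0.24), where 27.6% of all genes were higher and 30.8% lower. Bhlhe40, a repressor linked to the circadian clock and hypoxia, measured 8.14 and 7.13 FPKM in controls and 73.0 and 85.04 FPKM with IL-22, a 10.3-fold rise (3.21 ± 0.099, limma adjusted p = 7.5e-08). Tfap4, itself a known MYC target, measured 11.5 and 9.08 FPKM in controls and 3.06 and 1.96 FPKM with IL-22 (-1.69 ± 0.17, limma adjusted p = 4.52e-05). The clock gene Arntl rose by 1.02 and the lysosomal regulator gene Tfeb by 0.58.

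Targets of the glucose-sensing arm that works through MLX were higher or did not pass. Of 6 tested, 4 were higher, 0 lower and 2 did not pass (median 0.56), where 27.6% of all genes were higher. Txnip, which restrains glucose uptake, measured 53.5 and 56.9 FPKM in controls and 158.8 and 148.5 FPKM with IL-22 (1.46 ± 0.069, limma adjusted p = 6.29e-07). Its relative Arrdc4 rose from 6.97 ± 0.330 to 13.4 ± 0.322 FPKM (0.85), and Hk2 is in this list too. Fgf21, a hormone gene, was higher by 0.51, a call lost under 7 of 13 alternatives, among them the absence of either control or of IL-22 library 2.

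Markers of leukocytes and endothelial cells were low, the neuron list drew on 1 tested gene and the fibroblast list on 6. Of 10 macrophage and leukocyte markers, 8 stayed under 1 FPKM in every library, and Aif1, Emr1 and Mpo were listed at 0 throughout, with sums from 4.19 to 4.47 FPKM in controls and from 3.93 to 6.38 FPKM with IL-22. Of 9 fibroblast markers 3 were under 1 FPKM everywhere (Lum, Dcn and Postn, all listed at 0). The sums were from 408 to 418 FPKM in controls and from 425 to 431 FPKM with IL-22, mostly from Thy1 and Col1a2. Of the 6 tested, 4 were higher (Thy1, Fbln1, Pdgfra and Pdgfrb) and 2 lower (Col1a1 and Col1a2). Over all tested genes 27.6% were higher and 30.8% lower. Mean Thy1 went from 212 to 242 FPKM and mean Col1a2 from 172 to 146 FPKM. Sums of the 5 endothelial markers went from 1.61 to 1.84 FPKM in controls to 0.623 to 0.808 FPKM with IL-22. Those of the 5 neuron markers went from 11.9 to 12.4 FPKM to 20.1 to 20.6 FPKM, nearly all of it from Map2. Schwann cell marker sums were from 27.5 to 28.4 FPKM in controls and from 41.2 to 46.8 FPKM with IL-22. The part of any of these in the differences of the network genes was not tested.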

How the data were processed

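The deposited gene table gives FPKM made by the authors, with 1 column per library. The tools were TopHat2 and Cuffdiff and the build rn5, per the submitters' processing notes; the sources used here give no versions, annotation, strand or scaling of libraries. Poly(A) RNA was sequenced, per the labels' protocols. FPKM keep no absolute depth, and counting intervals were left out; relative depth came from the commonest ratio of rows under 0.15 FPKM. The lncRNA table was not used.

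Rows whose mean over the 4 libraries reached 1 FPKM were taken to log2(FPKM + 1) and fitted in R 4.3.3 with limma 3.58.1 (two-sided, eBayes with a mean trend, no covariates, Benjamini-Hochberg adjusted p under 0.05 over 9485 rows), a scale on which changes of low genes look smaller. A fold is the quotient of mean FPKM. With 1 library absent, the remaining one of its group is taken to vary as the other group does. The 14 alternatives were pseudocounts of 0.1, 0.5 and 5, no filter, a filter at 5 FPKM, quantile normalization, median-of-ratios size factors, eBayes without trend or robust, the replicate number as a block, and each library left out. Figures used matplotlib 3.10.9.

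Members and lists were chosen with earlier results of these data known. The genes named were all members, up to 4 past the threshold per list by absolute difference, the 3 nearest to the largest rise and fall, and Mki67, Socs3 and Stat3; Ldha, Odc1, Hdac1, Mlxipl and the marker genes complete counts and were named after their values were seen. The roles within the list that MYC raises were also assigned afterwards. RefSeq names came from the GRCr8 assembly, whose build differs from rn5; its coordinates are given only for the RefSeq sequences.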

Additional observations from a re-analysis of the deposited data

How the results depend on the processing

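Of 49 named genes with a test, 42 kept their direction and side of the threshold under every alternative run. The side changed for 6 (Fgf21, Max, Mlx, Mxd1, Mxd4 and Mycl), and Myc, which passed under none, changed sign under 4. Max reversed to 0.31 without control library 2, and passed at -0.47 without control library 1. Higher network members numbered 5, 3 without the filter, 3 with quantile normalization, and from 1 to 3 when 1 library was left out; lower members numbered 1, and from 1 to 2 with 1 library left out. Genes MYC raises that were higher numbered 2, 1 without the filter, with quantile normalization or without the trend, and from 1 to 2 with 1 library left out, and those that were lower ran from 54 to 55. The cause was not tested. Replicate numbers are not said to mark a shared culture, and deviations of same-numbered libraries did not correlate (r = -0.0020 across genes); with the replicate number as a block 2755 genes were higher and 3070 lower, and 4 members higher, Mxd1 losing its call (adjusted p = 0.0507). Precision is limited by 2 libraries a group.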
